A study of Mus musculus with 8 samples.

Results

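Transcripts of splicing factors and heterogeneous nuclear ribonucleoproteins (hnRNPs) were described in mouse aortic endothelial cells, grown either as a mature confluent monolayer or as a subconfluent culture. Members were the probe sets of the array that map to exactly 1 gene symbol starting with Srsf, Sf3a, Sf3b, Snrp or Hnrnp. There were 58 such probe sets for 41 genes, out of 10833 probe sets for 8251 genes with 1 symbol on the array. The rule used no measured value. A further 7 probe sets of these families list several symbols, among them Snrpa, Snrpd1, Snrpd2 and Hnrnpa3, and were left out by the rule.

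Introns are removed from pre-mRNA by the spliceosome, which is built from small nuclear ribonucleoproteins (snRNPs) and many further proteins. The Snrp genes encode proteins of the snRNPs, among them the Sm proteins that form a ring around the small nuclear RNA. SF3A and SF3B are complexes of the U2 snRNP, the particle that recognises the branch site of the intron. SR proteins, encoded by the Srsf genes, carry a domain rich in arginine and serine and mostly favour inclusion of the exons they bind. The hnRNPs coat nascent RNA and often act against SR proteins in the choice of splice sites.

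RNA was measured on 8 single-colour Affymetrix arrays, 1 sample per array, 4 from confluent cells and 4 from subconfluent ones (below 50% confluency), each from an equal number of cells. The labels name no strain, age or passage, and no treatment beyond the culture density. Values are signals that the authors scaled on every array to a common target of 500, so they are relative to the rest of each array. Of 14 endothelial markers on the array only Eng reached a mean signal of 200, while Cdh5 lay between 5.50 and 29.5 and Pecam1 between 50.1 and 163 over the 8 arrays. Of 13 fibroblast and pericyte markers 8 reached it, so the label of the cells was not borne out by its defining markers. The arrays of equal replicate number deviated together, and a fit with these pairs as a block is given beside the fit without it. Confluent replicate 1 had the lowest and confluent replicate 2 the highest signals of proliferation genes among the confluent arrays.

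Most members had somewhat higher signals in subconfluent cells, by small amounts. Of the 58 member probe sets 50 had a mean signal of at least 200 and were tested, and these stood for all 41 genes. The 8 that were not tested had mean signals from 13.7 to 196, and every gene they belong to had another probe set that was tested. On the log2 scale of signal plus 50, 41 of the 50 differences (subconfluent minus confluent) were above 0, or 82%, against 51.2% of all 6007 probe sets tested. The members' median difference was 0.24 and their range ran from -0.20 to 0.70, while the median over all probe sets tested was 0.01. In bulk RNA a change in the mix of cells and a change of RNA per cell cannot be told apart.

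Single members seldom passed the test. By limma without a block, adjusted by Benjamini and Hochberg's method across the whole tested array, 1 of the 50 members was higher, Sf3a3, and 0 were lower. That share of 2% is near the 2.75% of all tested probe sets that were higher, and 4.06% of all were lower. At an unadjusted p under 0.05 there were 10 members higher and 0 lower, 20% against 13.2% of all higher and 12.8% of all lower. Blocking on the pairs gave 9 members higher and 0 lower, 18% against 9.94% of all that were higher and 11.3% that were lower. The labels name 4 chip lots, lettered A to D here. With chip lot as a fixed block, in which only the lots that held arrays of both groups inform the difference, 6 members were higher and 0 lower, 12% against 6.13% higher and 5.24% lower. These counts, like those over all probe sets tested, rested on single arrays. Leaving out any array other than confluent replicate 2 gave 0 members higher without a block, where 18 to 90 of all 6007 probe sets tested were higher. Leaving out confluent replicate 2 gave 4 of the 50 members, beside 342 of all 6007. With the pairs as a block the count was 1 of 50 without pair 1, 10 without pair 2 and 2 without pair 3 or pair 4. Of all 6007 probe sets tested, 258, 652, 223 and 237 were higher without pairs 1 to 4.

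**Figure D1:**
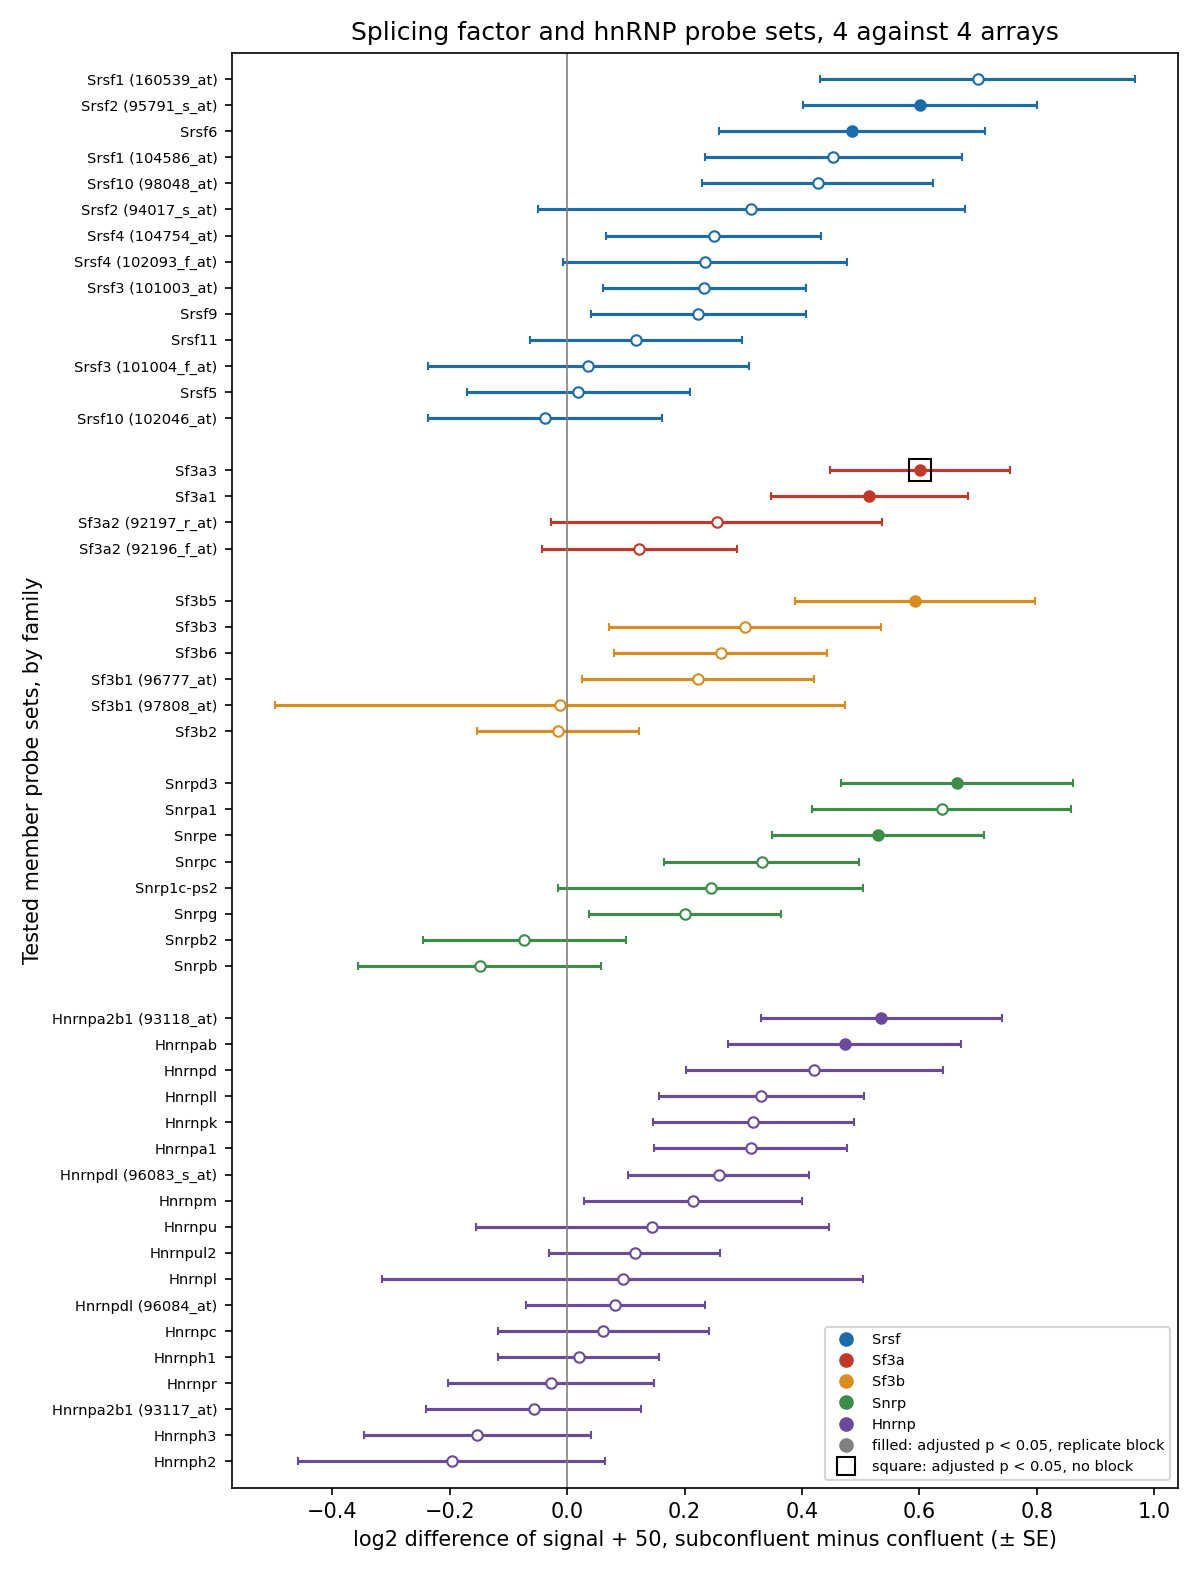
Log2 difference of signal + 50 (subconfluent minus confluent, ± SE, 4 against 4 arrays) for the 50 tested member probe sets, grouped by family. Filled points passed limma's adjusted p of 0.05 with the replicate block (9 members), and the square marks Sf3a3, which passed without it; most points lie to the right of 0.

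Promoters of 5 genes that were higher with the pairs as a block are shown here so that the regulatory sequence can be read beside the signals. They were chosen after their motif matches were seen, 4 with matches and Snrpe with none. RefSeq's table of mouse promoters (build GRCm38.p6) held 46 windows for 36 of the 41 genes, and none for Hnrnpll, Hnrnpul2, Sf3b5, Snrp1c-ps2 and Snrpb. The 250 bases before the annotated start are printed 5′ to 3′. Capitals mark matches on either strand to the ETS core CCGGAAG, the CCAAT box CCAAT or the TATA box TATAAA. The windows are chr1:133610281-133610530 on the minus strand for Snrpe, chr4:124714611-124714860 on the plus strand for Sf3a3, chr10:75517792-75518041 on the plus strand for Snrpd3, chr11:116853095-116853344 on the minus strand for Srsf2 and chr11:51606882-51607131 on the minus strand for Hnrnpab.
Sf3a3 promoter: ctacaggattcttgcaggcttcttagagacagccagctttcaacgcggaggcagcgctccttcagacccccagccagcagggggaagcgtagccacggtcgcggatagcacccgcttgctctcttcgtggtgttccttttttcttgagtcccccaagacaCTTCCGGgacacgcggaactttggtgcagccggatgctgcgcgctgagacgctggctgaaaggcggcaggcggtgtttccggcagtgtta
Snrpd3 promoter: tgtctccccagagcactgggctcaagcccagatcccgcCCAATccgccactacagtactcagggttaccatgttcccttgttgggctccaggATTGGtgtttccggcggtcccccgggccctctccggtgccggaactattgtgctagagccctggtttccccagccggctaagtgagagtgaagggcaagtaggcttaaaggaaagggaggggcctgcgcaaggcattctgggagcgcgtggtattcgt
Srsf2 promoter: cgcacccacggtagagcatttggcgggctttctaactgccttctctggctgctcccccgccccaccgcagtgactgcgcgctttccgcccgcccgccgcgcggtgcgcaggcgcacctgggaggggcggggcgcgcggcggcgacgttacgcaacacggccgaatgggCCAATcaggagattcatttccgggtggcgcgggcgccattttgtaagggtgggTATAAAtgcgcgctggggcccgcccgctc
Hnrnpab promoter: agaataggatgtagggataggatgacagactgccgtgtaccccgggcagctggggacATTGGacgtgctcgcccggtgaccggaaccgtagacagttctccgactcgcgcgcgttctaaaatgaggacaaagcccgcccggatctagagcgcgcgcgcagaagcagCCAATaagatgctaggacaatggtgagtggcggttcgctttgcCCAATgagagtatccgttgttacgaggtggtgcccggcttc
Snrpe promoter: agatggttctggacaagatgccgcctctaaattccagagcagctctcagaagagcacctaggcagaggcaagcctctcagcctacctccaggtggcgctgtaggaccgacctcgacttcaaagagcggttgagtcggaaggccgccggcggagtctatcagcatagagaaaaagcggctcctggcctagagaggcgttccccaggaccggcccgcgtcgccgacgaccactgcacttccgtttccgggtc
The Sf3a3 window held 1 ETS core, the Snrpd3 window 2 CCAAT boxes, the Srsf2 window 1 CCAAT box and 1 TATA box, and the Hnrnpab window 3 CCAAT boxes. Of the other called genes in the table, Srsf6 like Snrpe held none of the motifs searched, Sf3a1 held 1 ETS core, and each of the 2 Hnrnpa2b1 windows held 1 CCAAT box. The ETS core was found in 16 of the 46 member windows, 34.8%, against 6.91% of all 32851 promoter windows of the same length. Windows of 1 gene can overlap, as those of Hnrnpa2b1 do, and by gene the ETS core was found in 13 of 36. The CCAAT box was in 43.5% of member windows and 33.8% of all, and the TATA box in 8.70% and 12.4%. The E-box CACGTG, the site read by MYC and other basic helix-loop-helix factors, was in 1 member window, that of Hnrnpd, or 2.17% against 6.02% of all. The member windows were also richer in G and C, with a median of 60.6% against 52.4%, and held a median of 19.5 CG dinucleotides against 6, so windows of equal length were not of equal composition. None of the 4 motifs contains another, and a window was counted once per motif. A match is a run of letters and not a measured site.

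The 3 genes of SF3A, the complex that joins the U2 snRNP and is needed for a stable hold on the branch site, had the highest median difference of the 5 families, 0.38 over 4 probe sets. Sf3a3 had signals of 557, 726, 676 and 615 on confluent replicates 1 to 4, and of 1108, 890, 898 and 1117 on the subconfluent ones. All subconfluent values lay above all confluent ones. Means were 643 ± 73.6 for confluent and 1003 ± 126 for subconfluent arrays (SD, n = 4), so Sf3a3 rose 1.52-fold (log2 0.60 ± 0.15 SE, limma adjusted p = 0.0414, and 0.0246 with the pairs as a block). Without a block the call was lost when any array but confluent replicate 2 was left out, with adjusted p up to 0.109, and blocking on chip lot gave 0.0539. In chip lot A, with 1 array of each group, the log2 difference was 0.93, and in lot C, with 1 confluent and 2 subconfluent arrays, it was 0.53. Sf3a3 was also the member of the SF3 families whose pair means differed least, by 0.09 on the log2 scale.

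Sf3a1, a further subunit of the complex, had confluent signals of 350, 511, 407 and 516 and subconfluent signals of 622, 559, 701 and 735. The groups did not overlap. The difference was 0.51 ± 0.17 (SE, adjusted p = 0.0845 without a block, 0.0400 with the pairs and 0.0315 by lot), where “by lot” stands for the fit with chip lot as a fixed block, so Sf3a1 passed only in fits with a block. Sf3a2 was read by a pair of probe sets, whose names mark shared sequence or relaxed rules of probe choice, with differences of 0.12 and 0.25 (adjusted p = 0.695 and 0.630). Among all 50 members 6 had non-overlapping groups with the subconfluent values higher, 12% against 8.34% of all probe sets tested, and 0 had them lower, against 8.54% of all.

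SF3B, which holds the branch site adenosine in the U2 snRNP, had a median difference of 0.24 over 6 probe sets. Sf3b5, a small subunit of the complex, had confluent signals of 1165, 2236, 1483 and 1944 and subconfluent signals of 2431, 2967, 2296 and 2449. The lowest subconfluent value was just above the highest confluent one. It was 0.59 ± 0.20 (SE) higher, 1.51-fold, with an adjusted p of 0.0972 without a block, 0.0231 with the pairs and 0.0271 by lot. Sf3b3, a scaffold subunit, was 0.30 (adjusted p = 0.458), and Sf3b6, which lies next to the branch adenosine, was 0.26 (adjusted p = 0.410). Sf3b2 was -0.02 (adjusted p = 0.959).

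Sf3b1, which encodes the subunit that clamps the branch site and is often mutated in blood cancers, differed more between replicate numbers than between densities. Its brighter probe set had confluent signals of 1446, 1646, 437 and 1057 and subconfluent signals of 1605, 1484, 342 and 1279. Replicate 3 was the lowest in both groups. The means of the 4 pairs of arrays spanned 1.89 on the log2 scale, the widest span of the 50 members, against a difference between the groups of -0.01 ± 0.49 (SE, adjusted p = 0.992). The sign of this difference changed under several settings. The other probe set of Sf3b1 had a difference of 0.22 (adjusted p = 0.530), with a span of 0.58 between pairs.

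The snRNP proteins had a median difference of 0.29 over 8 probe sets. Snrpd3, which encodes an Sm ring protein, had confluent signals of 1299, 1761, 1511 and 1523 and subconfluent signals of 3008, 3102, 1964 and 1899. All subconfluent values were above the confluent ones, and replicates 1 and 2 were the furthest above. It was 1.58-fold higher (log2 0.66 ± 0.20 SE, adjusted p = 0.0667 without a block, 0.0234 with the pairs and 0.0719 by lot). Snrpe, another Sm ring protein, had signals of 3804, 5223, 3372 and 3861 against 6976, 6528, 4982 and 5024. Confluent replicate 2 overlapped the subconfluent values of replicates 3 and 4. Snrpe was 0.53 ± 0.18 higher (SE, adjusted p = 0.0938 without a block, 0.0206 with the pairs and 0.0460 by lot), and the name of its probe set marks sequence shared within a family.

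Other snRNP members did not pass in the fits without a block or with the pairs as a block. Snrpa1, the U2 snRNP protein A′, had confluent signals of 265, 509, 352 and 397 and subconfluent signals of 835, 639, 460 and 546. Its groups overlapped through confluent replicate 2. The difference was 0.64 ± 0.22 (SE, adjusted p = 0.0981, and 0.0605 with the pairs). Within pairs it was 1.49 in pair 1 and from 0.30 to 0.42 in the others. Snrpc, the U1 snRNP protein C that helps U1 hold the 5′ splice site, was 0.33 (adjusted p = 0.235). Snrpb, the Sm protein B, was -0.15 ± 0.21 (SE, adjusted p = 0.704), with signals from 8621 to 16377 in confluent and from 8779 to 12402 in subconfluent cells. Its probe set name marks relaxed rules of probe choice. The Sm ring proteins thus did not all have differences of 1 sign: Snrpd3, Snrpe and Snrpg (0.20, adjusted p = 0.486) were above 0 and Snrpb below. Snrpb2, which encodes the U2 snRNP protein B″, was -0.07 (adjusted p = 0.843), and the Snrpc pseudogene Snrp1c-ps2 was 0.24 (adjusted p = 0.613).

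**Figure D2:**
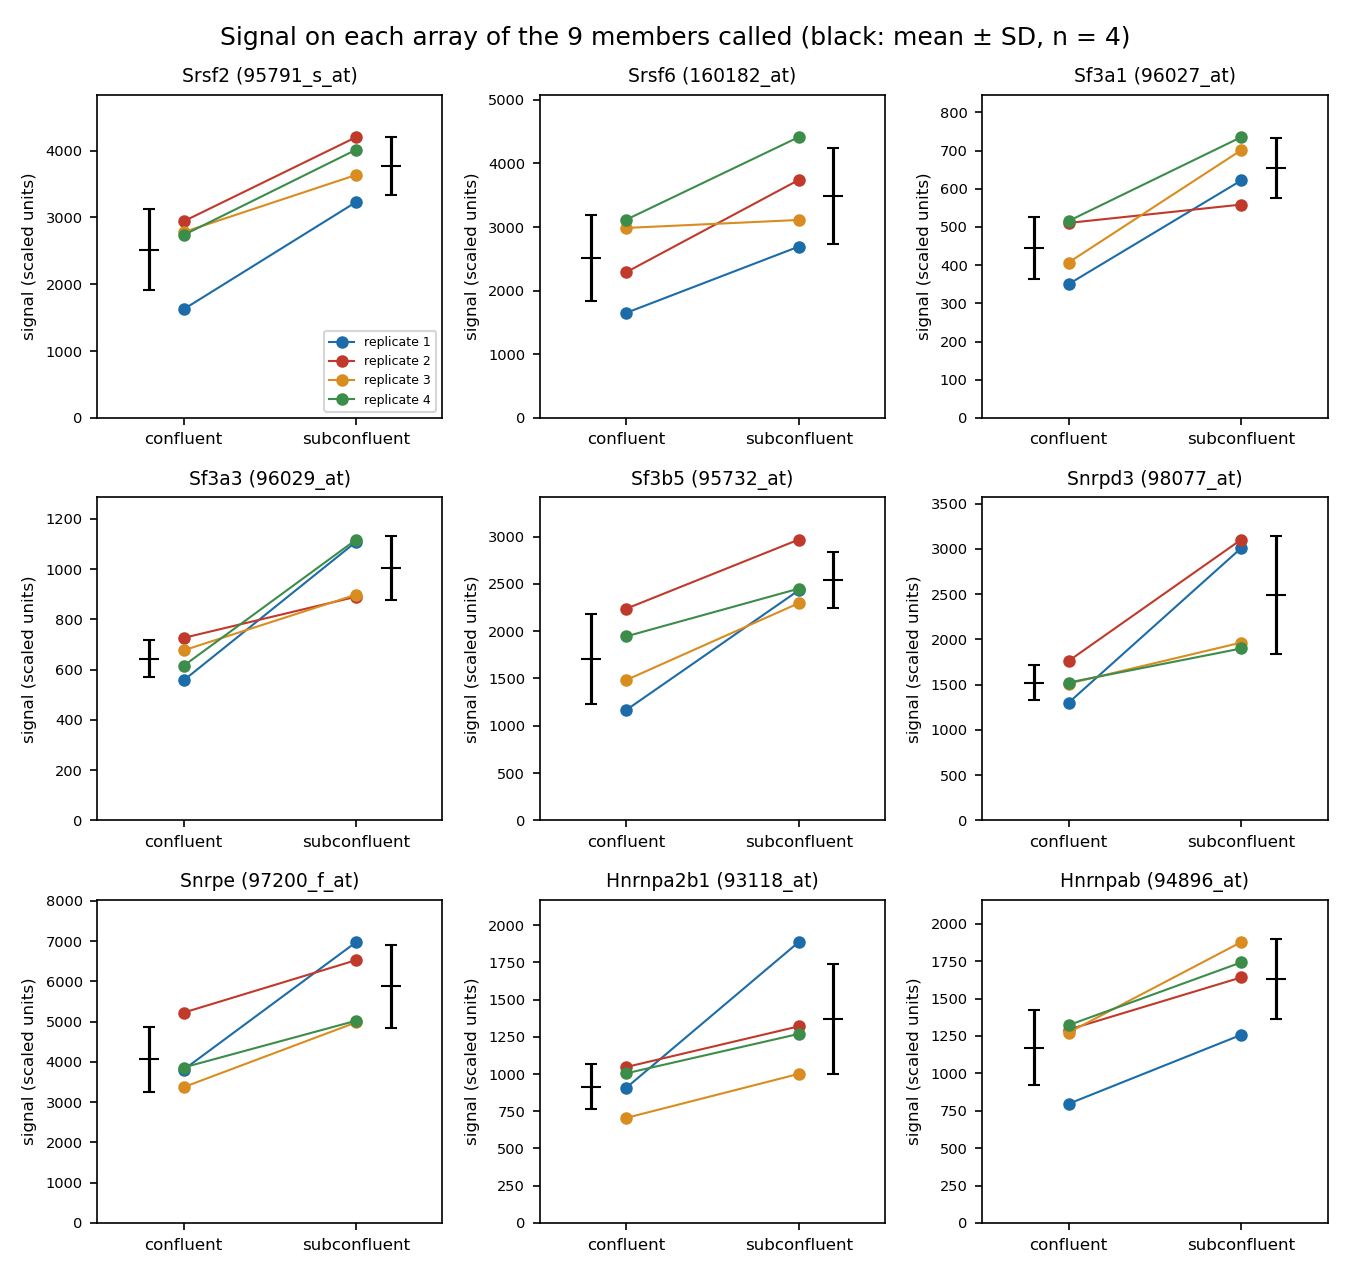
Signal (scaled units, linear axes from 0) on each array for the 9 member probe sets that passed with the replicate block; coloured lines join arrays of the same replicate number, and black bars give mean ± SD (n = 4). Every line rises, and confluent replicate 1 is the lowest confluent array in 7 of the 9 panels.

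The SR proteins had a median difference of 0.24 over 14 probe sets of 9 genes, of which 13 were above 0. None passed without a block, and 2 passed once pairs were blocked, 14.3% of the 14 against 9.94% of all probe sets tested. Srsf2, also called SC35, a classical SR protein of nuclear speckles, was read by a pair of probe sets whose names mark sequence that may not be unique. In the dimmer of these, signals were 1624, 2940, 2779 and 2735 in confluent and 3230, 4200, 3635 and 4012 in subconfluent cells. The groups did not overlap, and confluent replicate 1 lay far below the other confluent arrays. The difference was 0.60 ± 0.20 (SE, 1.52-fold, adjusted p = 0.0890 without a block, 0.0152 with the pairs and 0.0483 by lot). It was the member that stayed called in most fits with 1 pair left out, 3 of 4.

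The brighter Srsf2 probe set had signals of 4336, 12340, 13336 and 11852 against 7817, 16895, 16127 and 9525. Replicates 1 and 4 were the lower ones among the subconfluent arrays. Its difference was 0.31 ± 0.36 (SE, adjusted p = 0.648), and it was -0.07 without confluent replicate 1. The array scale factors had the same split among the subconfluent arrays, at 13.3 and 8.19 on replicates 2 and 3 against 4.39 and 3.05 on replicates 1 and 4. Among the confluent arrays replicate 4 had the lowest scale factor, 3.56, and a signal near those of replicates 2 and 3. With the log2 scale factor as a covariate, the group difference of this probe set was 0.30 (limma adjusted p = 0.621). The part of the scale factor in the split was not tested.

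Srsf6, an SR protein that regulates exon inclusion, had confluent signals of 1650, 2288, 2985 and 3114 and subconfluent signals of 2692, 3739, 3111 and 4413. The groups overlapped, but each subconfluent array was above its confluent partner. Srsf6 was 0.49 ± 0.23 higher (SE, adjusted p = 0.205 without a block, 0.0398 with the pairs and 0.207 by lot). Srsf1, the prototype SR protein, also called SF2/ASF, had the largest difference of all members by the brighter of its 2 tested probe sets. That difference was 0.70 ± 0.27 (SE), with signals of 382, 1017, 735 and 997 against 1428, 1097, 1080 and 1324. The groups did not overlap, yet it did not pass without a block (adjusted p = 0.129) or with the pairs (0.0760), and it passed by lot (0.0308). By this probe set the difference was 1.77 in pair 1 and from 0.10 to 0.52 in the other pairs. The dimmer tested Srsf1 probe set had overlapping groups and a difference of 0.45. Its adjusted p was 0.219 without a block, 0.102 with the pairs and 0.0599 by lot. Srsf10, which acts as a splicing repressor when dephosphorylated, was 0.43 (adjusted p = 0.200) by its brighter probe set and -0.04 (adjusted p = 0.933) by its dimmer one. The remaining SR genes, Srsf3, Srsf4, Srsf5, Srsf9 and Srsf11, had differences from 0.02 to 0.25, and none of them passed without a block or with the pairs.

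The hnRNPs had the lowest median difference of the 5 families, 0.13 over 18 probe sets of 16 genes, of which 14 were above 0. None passed without a block. With the pairs 2 did, 11.1% of the 18 and near the 9.94% of all probe sets tested, and 0 had non-overlapping groups with subconfluent higher, against 8.34% of all. Hnrnpab, a member of the hnRNP A/B type that binds RNA and single-stranded DNA, had confluent signals of 796, 1292, 1273 and 1322 and subconfluent signals of 1257, 1641, 1877 and 1742. Only subconfluent replicate 1 lay within the confluent range. Hnrnpab was 0.47 ± 0.20 higher (SE, adjusted p = 0.163 without a block, 0.0276 with the pairs and 0.0670 by lot), with between 0.33 and 0.63 in each of the 4 pairs.

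Hnrnpa2b1, which encodes hnRNP A2 and B1, abundant regulators of splicing and mRNA transport, gave unlike values by its probe sets. The brighter had signals of 5732, 5073, 4822 and 5143 in confluent and 7027, 3930, 4338 and 5124 in subconfluent cells, with a difference of -0.06 ± 0.18 (SE, adjusted p = 0.890). The dimmer had 906, 1047, 705 and 1005 against 1886, 1321, 1001 and 1270, with a difference of 0.53 ± 0.21 (SE, adjusted p = 0.130 without a block, 0.0371 with the pairs and 0.0347 by lot). Subconfluent replicate 1 was the highest array by either probe set. Which transcript forms the probe sets read was not analysed here.

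Hnrnpd, also called AUF1, which binds AU-rich elements and affects mRNA decay, was 0.42 (adjusted p = 0.255), with signals from 1250 to 2397 in confluent and from 1953 to 3053 in subconfluent cells. Hnrnpa1, a repressor of splice sites, was 0.31 (adjusted p = 0.261), with signals from 329 to 384 and from 377 to 556. The ranges of both genes overlapped between the groups. The members with the lowest differences of all 50 were hnRNPs of the H type, which bind G-rich runs: Hnrnph2 at -0.20 (adjusted p = 0.690) and Hnrnph3 at -0.15 (adjusted p = 0.674), named here after their values were seen. Hnrnph1 of the same type was 0.02 (adjusted p = 0.951), with 2741 to 2927 in confluent and 2529 to 3226 in subconfluent cells. The remaining hnRNP probe sets had differences from -0.03 (Hnrnpr) to 0.33 (Hnrnpll), and none of them passed without a block or with the pairs.

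**Figure D3:**
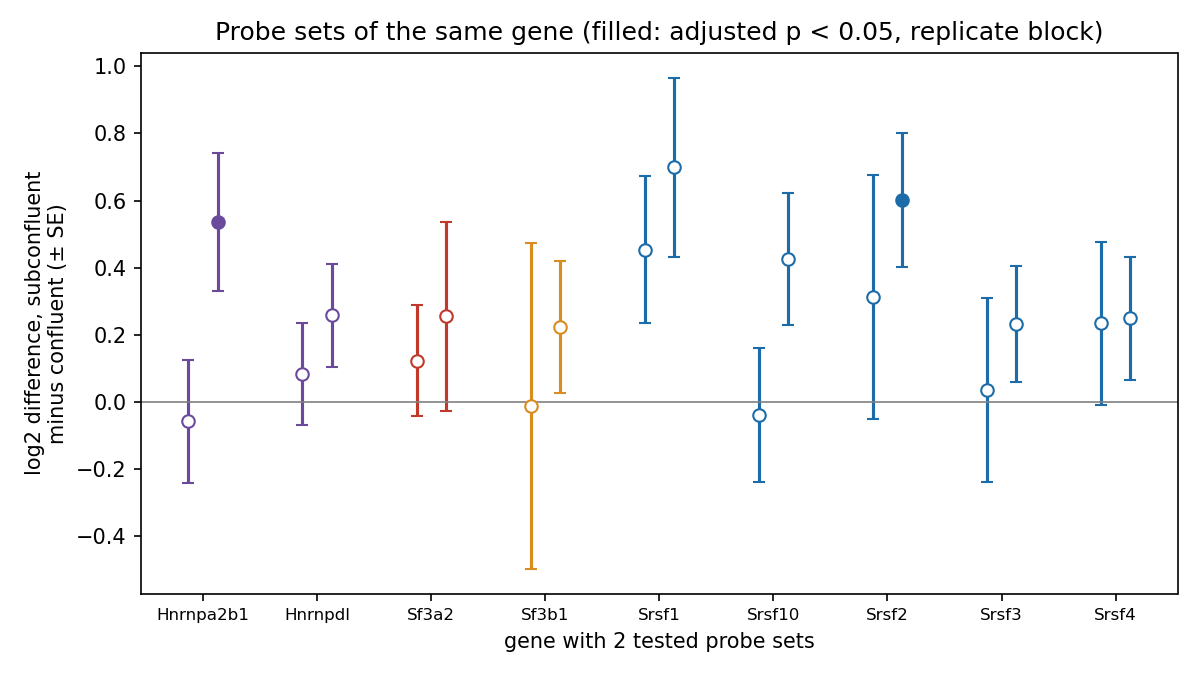
Log2 difference (subconfluent minus confluent, ± SE, 4 against 4 arrays) of the 2 tested probe sets of each of 9 member genes; colours are families as in the plot of all members, and filled points passed with the replicate block. For Hnrnpa2b1, Sf3b1 and Srsf10 the 2 probe sets fall on different sides of 0.

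In all, 9 member genes had 2 tested probe sets. Their differences lay between 0.02 (Srsf4) and 0.59 (Hnrnpa2b1) apart, and had unlike signs for Hnrnpa2b1, Sf3b1 and Srsf10. Of the 50 tested members 12 have names that mark shared or otherwise special probes. Over the 38 with plain names the median was 0.24. Of these 1 was called higher without a block and 7 with the pairs, 2.63% and 18.4%. With 1 probe set per gene, the one with the highest mean signal, 1 of 41 was called without a block. With the pairs 7 were, so the shares were 2.44% and 17.1%. Of all probe sets tested 2.75% were higher without a block and 9.94% with the pairs. The shares above 0 were 84.2% for plain names and 80.5% for 1 probe set per gene, against 51.2% of all.

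For 40 of the 50 members the means of the 4 pairs of arrays spanned more than the difference between the groups, 80% against 75.4% of all probe sets tested, which is near the background. The spans were above 1 on the log2 scale for Sf3b1, Hnrnpl, Srsf2 and Hnrnpu, each by its brightest probe set. Hnrnpl, which binds CA repeats, had signals of 502, 913, 1113 and 534 against 562, 1004, 1712 and 362, named here after its values were seen. Replicates 2 and 3 were high and replicates 1 and 4 low in both groups. The direction in pairs was steadier than the size: 22 of 50 members were higher in all 4 pairs, 44% against 20.7% of all probe sets tested, and 0 were lower in all 4, against 22.1% of all. The members' median difference was 0.41 in pair 1, 0.10 in pair 2, 0.27 in pair 3 and 0.14 in pair 4. Pair 1 is also chip lot A, and within lot C the members' median was 0.26.

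**Figure D4:**
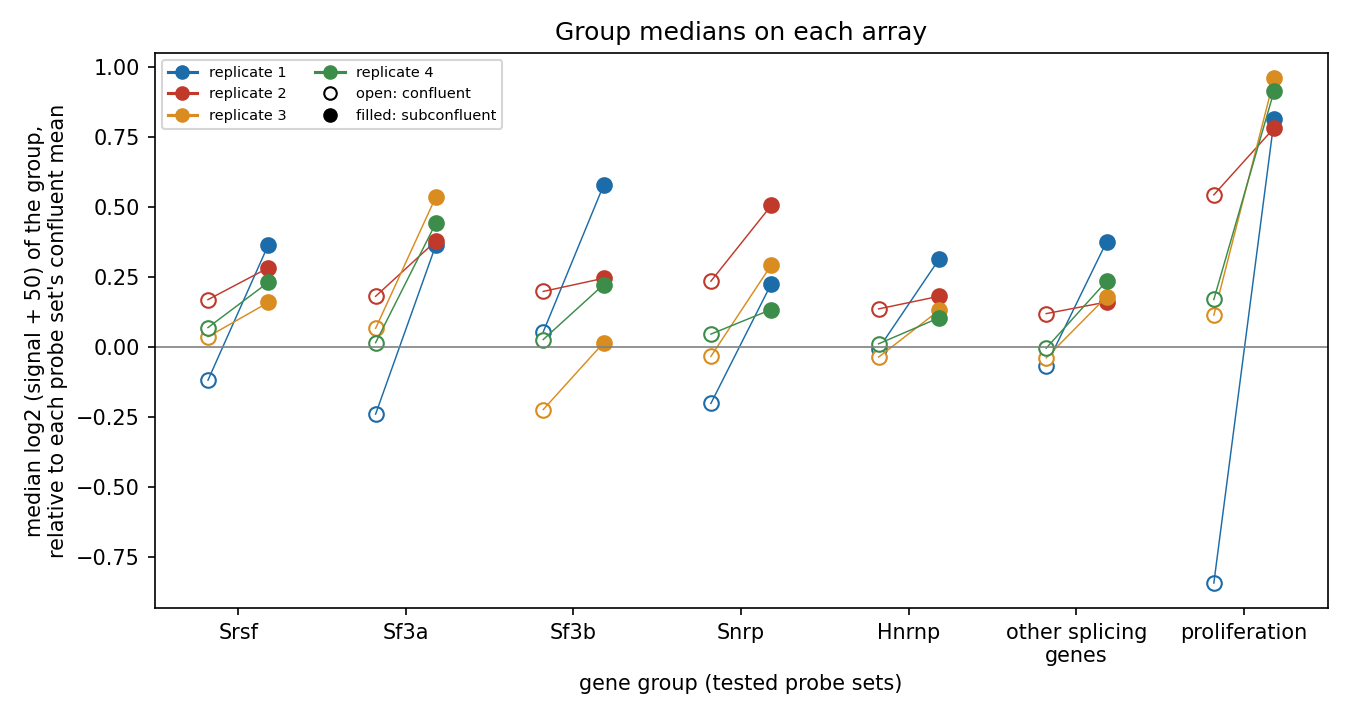
Median over the tested probe sets of each group of log2 (signal + 50) relative to the confluent mean of each probe set, on each array (open: confluent, filled: subconfluent, lines join equal replicate numbers). In all groups shown every line rises, steepest in replicate 1, and the proliferation list moves most, from -0.84 on confluent replicate 1 to 0.96 on subconfluent replicate 3.

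Relative to each probe set's confluent mean, the members' median was -0.10 on confluent replicate 1, 0.18 on confluent replicate 2, -0.01 on replicate 3 and 0.02 on replicate 4. On subconfluent replicates 1 to 4 it was 0.33, 0.28, 0.15 and 0.15. Confluent replicate 2 was thus above subconfluent replicates 3 and 4. Proliferation genes stood beside this at -0.84, 0.54, 0.11 and 0.17 on the confluent and 0.81, 0.78, 0.96 and 0.91 on the subconfluent arrays. Of 22 proliferation genes on the array 21 reached the signal minimum, and 5 of them were higher without a block and 15 with the pairs. These were 23.8% and 71.4% of the 21, against 2.75% and 9.94% of all probe sets tested, and 0 were lower in either fit. Their summed signal ran from 16595 to 47000 in confluent and from 51855 to 59201 in subconfluent cells, with the confluent extremes on replicates 1 and 2. The summed signal of 13 fibroblast and pericyte markers ran from 62078 to 92909 in confluent and from 35252 to 50108 in subconfluent cells, that of 14 endothelial markers from 1517 to 1977 and from 1252 to 1595, that of 6 smooth muscle markers from 1215 to 3022 and from 1408 to 9174, and that of 10 macrophage markers from 2784 to 4174 and from 1923 to 2540. Of the 10 macrophage markers only Cd14 reached a mean signal of 200. Cd14 alone had means of 2541 in confluent and 1521 in subconfluent cells, most of the macrophage sum. Eng alone, the only endothelial marker to reach 200, had means of 883 and 781. Of the smooth muscle markers only Acta2 and Tagln reached 200, with means of 1039 and 590 in confluent and 2857 and 1714 in subconfluent cells. The dimmer Myh11, Des and Smtn had lower means in subconfluent cells, and Cnn1 a higher one. Of the 8 fibroblast and pericyte markers that reached 200, 7 had differences below 0, and 1, Fbln2, was above. No marker had a signal of exactly 0. The part of these genes and cells in the members' differences was not tested.

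Other genes of the splicing pathway, from 5 lists of 141 genes that hold no member, had a median difference of 0.23. Of 102 on the array 85 reached the signal minimum, and 64 of them had differences above 0, or 75.3% against 51.2% of all probe sets tested. Without a block 3 were higher and 1 lower, 3.53% and 1.18% of the 85 against 2.75% and 4.06% of all probe sets tested. Blocking on the pairs gave 18 higher and 2 lower, 21.2% and 2.35% against 9.94% and 11.3%. In fits that left out 1 array the count higher ran from 0 to 9 of the 85, with 9 without confluent replicate 2. Over all 6007 probe sets tested it ran from 18 to 342, with 342 without confluent replicate 2.

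The highest median among the lists with more than 1 tested gene was 0.51. It was that of 10 genes for the Lsm ring of U6 and for the assembly of snRNPs, all with differences above 0. Of these 1 was higher without a block and 4 with the pairs, 10% and 40%. The shares over all probe sets tested were 2.75% and 9.94%. Lsm3, a protein of that ring, had signals of 1251, 2736, 1515 and 1925 in confluent and 3248, 4339, 2993 and 2953 in subconfluent cells. The groups did not overlap. It was 0.89 ± 0.23 higher (SE, adjusted p = 0.0467, and 0.00581 with the pairs). The U2 recruitment and core list of 34 genes had a median of 0.23. In this list 1 gene was higher without a block and 5 with the pairs, or 2.94% and 14.7%. Its Usp39, a protein of the tri-snRNP, had means of 421 ± 32.5 and 647 ± 79.1 (SD, n = 4) and was 0.56 ± 0.15 higher (SE, adjusted p = 0.0451). Among 16 genes of SR kinases and SR-related proteins the median was 0.13. Of them 1 was higher without a block and 4 with the pairs, or 6.25% and 25%. Rnps1, which links splicing to the exon junction complex, had signals of 1519, 1771, 1324 and 1870 against 2121, 2993, 3160 and 4009, with no overlap, and was 0.88 ± 0.20 higher (SE, adjusted p = 0.0317).

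Of the exon junction complex 1 gene was tested, Rbm8a, which encodes Y14, at 0.70 (adjusted p = 0.0503, and 0.0121 with the pairs). The 24 other RNA-binding regulators had a median of 0.14. Without a block 0 were higher and 1 lower, 0% and 4.17% against 2.75% and 4.06% of all probe sets tested. With the pairs 4 were higher and 2 lower, 16.7% and 8.33% against 9.94% and 11.3% of all. Cirbp, an RNA-binding protein induced by mild cold, fell: its signals were 1042, 631, 651 and 715 in confluent and 500, 400, 419 and 433 in subconfluent cells. All subconfluent values lay below all confluent ones, with a difference of -0.71 ± 0.18 (SE, adjusted p = 0.0409). Each of Lsm3, Usp39, Rnps1 and Cirbp lost its call in some fits that left out 1 array, with adjusted p up to 0.114, and none did so without confluent replicate 2.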

How the data were processed

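Signals were read from the deposited table, 1 linear signal per probe set and array, which the authors computed by Affymetrix's statistical method at a target of 500, per the labels. Which software version was used is not given in the sources used here. Of 12488 probe sets 66 controls were left out, and the 6007 whose mean signal reached 200 were tested. Symbols came from the array's annotation. All 58 members' gene identifiers were found in RefSeq's table with the same symbol.

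Signals were put on a log2 scale after adding 50, which shrinks folds at low signal. Folds were taken from these log2 differences and not from the mean signals. Groups were compared with limma 3.58.1 in R 4.3.3 (lmFit, eBayes with a variance trend, two-sided, 6 residual degrees of freedom, Benjamini-Hochberg adjustment over all tested probe sets, threshold 0.05), after the script was tested on simulated data. Plots were made in Python 3.11.15. Nothing in the labels shows whether the arrays came from separate cultures, so p-values measure the spread between these arrays. The number of arrays limits the precision.

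Same-numbered arrays correlated at 0.486, 0.357, 0.516 and 0.348 in their deviations from the group means, and the highest correlation across numbers was 0.0681. A fit with the samples paired by number (3 residual degrees of freedom) was therefore given beside the main fit, which had no block. This pairing was read from these same data, and same-numbered arrays shared a chip lot for replicates 1 and 3 only. Named members were, in each family, those that passed in either of these fits, the 4 with the smallest p, the one with the highest mean signal, and those of genes whose probe sets differ in sign. Other splicing genes were named if they passed, or had the smallest p of a list. Further members were named after their values were seen, to account for each family. The members and lists were chosen with earlier results of these data known. Alternatives changed the pseudocount, filter, scaling, block, covariate and arrays used.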

Additional observations from a re-analysis of the deposited data

Results flagged for a closer look

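In 5 of 60 groups of 4 arrays checked, 1 array lay far from the other 3 by Dixon's test, which chance gives in about 1 in 20 groups. In 4 of the 5 that array was confluent replicate 1, always the lowest. Srsf2 had a signal of 4336 there by its brighter probe set against 11852 to 13336 on the other confluent arrays, and 1624 against 2735 to 2940 by its dimmer one. Sf3b3 had 691 against 1193 to 1319, and Hnrnpab 796 against 1273 to 1322. The fifth was the brighter Sf3b1 probe set on subconfluent replicate 3, at 342 against 1279 to 1605, where the confluent array of the same number was low as well, at 437.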

How the results depend on the processing

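Counts below are of 6007 probe sets, 50 members and 85 other splicing genes tested, except where the filter on signal was changed. With the pairs as a replicate block, 597 probe sets were higher and 679 lower against 165 and 244 without it, with 9 members higher and 18 and 2 other splicing genes higher and lower. With chip lot as a fixed block, 368 probe sets, 6 members and 12 other splicing genes were higher and 2 of the latter lower. As a random block, lot gave 453 probe sets higher and 485 lower, 9 members higher, and 15 and 2 other splicing genes higher and lower. With no filter on signal, 72 and 136 probe sets, 0 members, and 0 and 0 other splicing genes were called. Within lot C, where 1 array stood against 2, the counts were 2, 3, 0, 0 and 0. Other splicing genes higher were 6 with a pseudocount of 150, and 7 with a minimum signal of 500 or with arrays centred on their medians. Over all probe sets tested, 189, 169 and 206 were higher in these fits, in that order. The members' median was 0.41 within lot A. Leaving out 1 array, the ranges were 18 to 342 probe sets higher, 80 to 345 lower, 0 to 4 members higher, 0 lower, 0 to 9 and 0 to 1 other splicing genes, and a members' median of 0.18 to 0.30. With the block and 1 pair left out (added after seeing the data), 258, 652, 223 and 237 probe sets were higher without pairs 1 to 4 and 353, 618, 367 and 413 lower; 1, 10, 2 and 2 members were higher and 0 lower, 7, 21, 3 and 6 other splicing genes were higher and 1, 3, 1 and 1 lower, and the members' median ran from 0.16 to 0.27. No alternative called a member lower. Signs changed only where differences were uncalled. The dimmer Srsf10 probe set was 0.0078 with quantile normalization, 0.045 by lot, -0.17 to 0.069 leaving out 1 array and 0.031 with the block without pair 4. The brighter Sf3b1 probe set was 0.0053 with quantile normalization, 0.014 with median centring, 0.39 with fixed and 0.18 with random lots, 0.57 within lot C, -0.40 to 0.47 leaving out 1 array, and 0.032 and 0.088 with the block without pairs 2 and 3. The brighter Srsf2 probe set was -0.11 within lot C and -0.066 to 0.52 leaving out 1 array, the dimmer Sf3a2 one -0.25 within lot C, and Snrpb -0.29 to 0.015 leaving out 1 array. The brighter Hnrnpa2b1 probe set was 0.11 by lot, -0.22 to 0.055 leaving out 1 array and 0.045 with the block without pair 2. Within lot A, with 1 array of each group, it was 0.29. There the dimmer Srsf10 probe set was 0.30, the brighter Sf3b1 one 0.15 and Snrpb 0.11, also of the other sign. The cause was not tested.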
